A study of Mus musculus with 2 samples.

Results

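miR-103 and miR-107 are a small family of vertebrate miRNAs whose hairpins lie in introns of the pantothenate kinase genes Pank1, Pank2 and Pank3. All rows of both names, of any arm or copy, were taken from the tables of the newborn mouse retina, which gave 3 of the 1358 mature miRNAs listed: miR-103-3p, miR-107-3p and miR-107-5p. The 2 remaining names of the family, miR-103-1-5p and miR-103-2-5p, had no row and were not analysed here. The samples were 2 small RNA libraries of retina from untreated wild-type mice of the outbred strain CD-1 at postnatal day 0, the day of birth. They formed 1 group, with 8337902 counts in replicate 1 and 8118196 in replicate 2, so no condition was compared. Whether the replicates were separate animals is not given, and their spread may be technical.

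Pantothenate kinases carry out the first committed step of coenzyme A synthesis, and the hairpins are transcribed in the same direction as their host genes. A hairpin is cut into a 5p arm and a 3p arm, of which one usually stays bound to an Argonaute protein and guides it to messenger RNAs through its seed, bases 2 to 8. In mice, miR-103 and miR-107 are known for lowering insulin sensitivity in liver and fat through caveolin-1, and in human breast cancer cells for targeting Dicer, the enzyme that makes mature miRNAs. PANK2, the human gene that hosts a miR-103 copy, is mutated in a neurodegenerative disease that can include retinal degeneration.

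The mature sequences from RefSeq (GRCm38.p6) show how closely the members resemble each other. The seed, bases 2 to 8 from the 5′ end, is in capitals.
miR-103-3p: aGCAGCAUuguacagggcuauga
miR-107-3p: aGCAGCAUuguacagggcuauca
miR-107-5p: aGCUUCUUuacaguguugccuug
The 2 abundant members, miR-103-3p and miR-107-3p, shared the seed and 22 of 23 bases. They differed by G22C (miR-103-3p base first, with base 1 at the 5′ end), so their first 21 bases were the same. No other listed miRNA with a RefSeq sequence had this seed. The 5p arms had a different seed, which all 3 of them shared. miR-107-5p differed from miR-103-2-5p by C16U and from miR-103-1-5p by G1A and C16U (the miR-103 base first in each), and the miR-103 5p arms differed from each other by G1A (miR-103-1-5p first).

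The hairpins are printed because the same miR-103-3p can come from either of 2 loci, with the annotated mature arms in capitals.
Mir103-1: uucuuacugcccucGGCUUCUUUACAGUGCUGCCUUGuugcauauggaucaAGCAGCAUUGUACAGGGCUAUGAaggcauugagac
Mir103-2: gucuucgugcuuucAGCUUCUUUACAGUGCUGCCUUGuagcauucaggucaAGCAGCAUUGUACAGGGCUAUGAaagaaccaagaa
Mir107: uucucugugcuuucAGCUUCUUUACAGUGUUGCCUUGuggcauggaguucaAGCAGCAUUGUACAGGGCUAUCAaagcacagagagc
In each hairpin the 5p arm covered bases 15 to 37 and the 3p arm bases 52 to 74. Compared base by base without gaps over 86 bases, Mir103-1 and Mir103-2 were alike at 45 of the 46 arm bases and at 24 of the 40 others. Mir103-2 and Mir107 were alike at 44 arm bases and at 29 of the others, and Mir103-1 and Mir107 at 43 and 26. By identity over the 86 bases, Mir103-2 was thus closer to Mir107 (84.9%) than to Mir103-1 (80.2%), although it gives the same 3p sequence as Mir103-1.

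All 3 hairpins lay in intron 5 of 6 of the principal GENCODE M21 transcript of their host, on the host's strand (GRCm38). Mir103-1 is on the plus strand at chr11:35782396-35782481, in a 1740-base intron of Pank3, 688 bases after the upstream exon. Mir103-2 is on the plus strand at chr2:131288052-131288137, in a 5801-base intron of Pank2, 454 bases after the upstream exon. Mir107 is on the minus strand at chr19:34820687-34820773, in a 7282-base intron of Pank1, 326 bases after the upstream exon. None overlapped an exon of a protein-coding transcript that spans it. The host messenger RNAs were not measured in these small RNA libraries, so host and miRNA levels could not be compared.

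By the counts listed under each name, miR-103-3p was among the abundant miRNAs of the newborn retina and miR-107-3p was about 30-fold lower. No count was listed for miR-107-5p. miR-103-3p had 20734 counts in replicate 1 and 21991 in replicate 2. Scaled to a common library total, as CPM, that was 2487 in replicate 1 (exact 95% interval 2453 to 2521) and 2709 in replicate 2 (2673 to 2745). Its mean was 2598 ± 157 CPM (SD, n = 2), 0.260% of all counts and rank 40 of 1358. The libraries lay close together on this scale, but their counting intervals did not overlap.

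miR-107-3p had 754 counts in replicate 1 and 682 in replicate 2, or 90.4 CPM (84.1 to 97.1) and 84.0 CPM (77.8 to 90.6) in that order. Its mean was 87.2 ± 4.54 CPM (SD, n = 2) and rank 185, and here the intervals of the libraries overlapped. miR-107-5p, the opposite arm of the miR-107 hairpin, had 0 counts in both libraries, so that levels up to 0.360 CPM (replicate 1) and 0.370 CPM (replicate 2) remain possible, the level of 3 counts. Amplified reads are not independent molecules, so these intervals and limits hold for counting error alone. Levels refer to the whole retina, in which fewer cells that hold a miRNA and less of it per cell cannot be told apart.

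**Figure D1:**
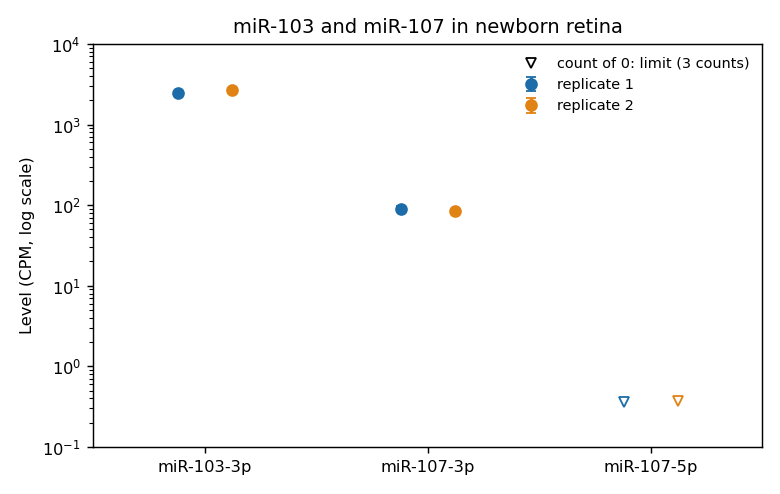
Level of each listed member in CPM (y axis, log scale), with a filled point for each library and exact 95% binomial intervals mostly smaller than the points. Open triangles mark a count of 0 and are drawn at the level of 3 counts. miR-103-3p sits at 2487 and 2709 CPM, miR-107-3p at 90.4 and 84.0 CPM, and miR-107-5p had no count in either library.

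Among all rows, both 3p members stood in the upper part of the abundance curve, at ranks 40 and 185 of 1358. The next miRNAs above miR-103-3p in mean level were miR-381-3p (2648 ± 212 CPM) and let-7e-5p (2880 ± 34.6 CPM), and the next below were miR-30e-5p (2408 ± 106 CPM) and miR-370-3p (2399.6 ± 212 CPM; SD, n = 2). Around miR-107-3p stood miR-485-5p (89.4 ± 3.47 CPM) and miR-216a-3p (94.8 ± 4.28 CPM) above, and miR-181c-5p (86.5 ± 20.2 CPM) and miR-1843a-5p (86.3 ± 3.26 CPM) below. Pairs of miRNAs were compared inside each library, with a log2 ratio and a two-sided exact binomial test for equal counts. A pair was called when the libraries shared the sign, each adjusted p-value was below 0.05 and the mean of the ratios exceeded 2 SD. None of these 8 neighbour pairs was called. The neighbours were picked for their nearness in mean level in these same libraries, so ratios near 0 were built in. The missing calls therefore cannot serve as evidence on the ranks. In 3 of them the sign differed between the libraries. In 1 pair, miR-103-3p below let-7e-5p, the sign was the same and the adjusted p-values were below 0.05 in both libraries. That pair missed the call only because its mean log2 ratio (-0.15 ± 0.10) did not exceed 2 SD. By library, miR-103-3p was at rank 43 in replicate 1 and 40 in replicate 2, and miR-107-3p at 188 and 186. The exact ranks of both members are therefore not fixed by 2 libraries.

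**Figure D2:**
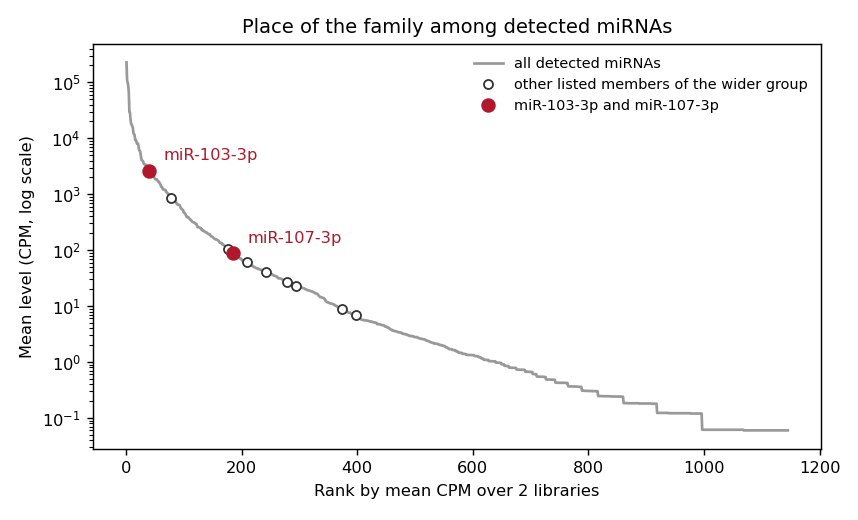
Mean level in CPM (y axis, log scale) of every detected miRNA against its rank (x axis), with miR-103-3p and miR-107-3p as filled points and the other listed members of the wider group of miR-15 and miR-16 as open circles. miR-103-3p is at rank 40 and 2598 CPM and miR-107-3p at rank 185 and 87.2 CPM, with miR-16-5p and miR-15b-5p at the ranks between them.

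By log2 CPM over the 2 libraries, the miRNAs nearest to miR-103-3p of 918 others detected in both were miR-381-3p (Euclidean distance 0.047), miR-30e-5p (0.215) and let-7e-5p (0.236). The nearest to miR-107-3p were miR-485-5p (0.055), miR-30d-3p (0.127) and miR-1843a-5p (0.132). With 2 libraries this measure reflects the level more than any shared pattern.

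When counts were summed over miRNAs with the same seed, the seed of miR-103-3p and miR-107-3p held 2685 ± 153 CPM (SD, n = 2). That was rank 24 of 982 seeds, over the 1152 miRNAs with a RefSeq sequence. miRNAs whose hairpins all lay in introns of protein-coding genes on the same strand made up 25 of 67 miRNAs at 1000 CPM or more (37.3%) and 440 of 903 detected miRNAs (48.7%), over miRNAs with a hairpin in RefSeq. Among those 440, miR-103-3p was the 12th highest and miR-107-3p the 61st.

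miR-103-3p exceeded miR-107-3p by 27.5-fold in replicate 1 and 32.2-fold in replicate 2. On the log2 scale the ratios were 4.78 and 5.01, averaging 4.90 ± 0.16 (SD, n = 2), and the difference was called, with binomial p-values too small to be held as a number. miR-107-3p made up 3.51% of the summed 3p counts in replicate 1 (exact 95% interval 3.27% to 3.76%) and 3.01% in replicate 2 (2.79% to 3.24%). These intervals did not overlap, so the ratio differed between the libraries by more than counting error. miR-103-3p has 2 hairpins and miR-107-3p has 1, and the count of miR-103-3p cannot be divided between Mir103-1 and Mir103-2. The yield of adapter ligation depends on the RNA sequence, above all on its ends, and is part of any ratio between miRNAs.

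The most frequent read of each member, which the deposited tables give for each library, bears on how well the members can be told apart. Both are printed from the files, in which U is written T, with base 22 in capitals.
miR-103-3p: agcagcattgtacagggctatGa
miR-107-3p: agcagcattgtacagggctat
The reads were the same in both libraries. The miR-103-3p read was the full annotated sequence of 23 bases and held the base that sets it apart from miR-107-3p. The miR-107-3p read was 21 bases long and ended just before that base. It is contained in miR-103-3p as well as in miR-107-3p, and among 1005 mouse hairpins in RefSeq it was found in 3, namely Mir103-1, Mir103-2 and Mir107. The most frequent read counted as miR-107-3p therefore could have come from any of these 3 loci by its sequence.

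Of 963 miRNAs with a most frequent read in both libraries, 6 (0.623%) had one that lay, by exact match, wholly inside the RefSeq sequence of another listed miRNA. miR-107-3p had the highest level of the 6. Both miR-107-3p counts were whole numbers, as in 2 of these 6 miRNAs, whereas the other 4 had fractional counts in at least 1 library. The search could not find reads with a mismatched base, or overlap with names that lack a RefSeq sequence, so the share is a lower bound. Outside the 6, let-7a-1-3p and let-7c-2-3p both stood at 76.7 CPM, and miR-486a-5p and miR-486b-5p both had 512 counts in each library. Fractional counts occurred in 121 of the 1358 rows. How the reads of 21 bases were shared between miR-103-3p and miR-107-3p is not given in the sources used here. Moving every miR-107-3p count to miR-103-3p would raise miR-103-3p by 3.64% in replicate 1 and 3.10% in replicate 2. How many reads of Mir107 were counted as miR-103-3p cannot be read from the tables. The level of miR-107-3p could be much lower than its count, or higher if reads from Mir107 were counted as miR-103-3p, and the ratio between them is uncertain to the same extent.

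The 5′ ends, which set the seed, were at the annotated base for both 3p members in both libraries. The same held for 149 of 161 miRNAs at 100 CPM or more with a RefSeq sequence (92.5%). At the 3′ end, miR-103-3p matched the annotated end, as did 100 of those 161 (62.1%). The end of the miR-107-3p read lay 2 bases early, and an end 2 or more bases early in both libraries was found in 7 of the 161 (4.35%) and in 19 of 313 at 10 CPM or more (6.07%). The most frequent read was identical in both libraries in 156 of the 161 (96.9%) and in 292 of the 313 (93.3%), so agreement between the libraries was not particular to the family.

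**Figure D3:**
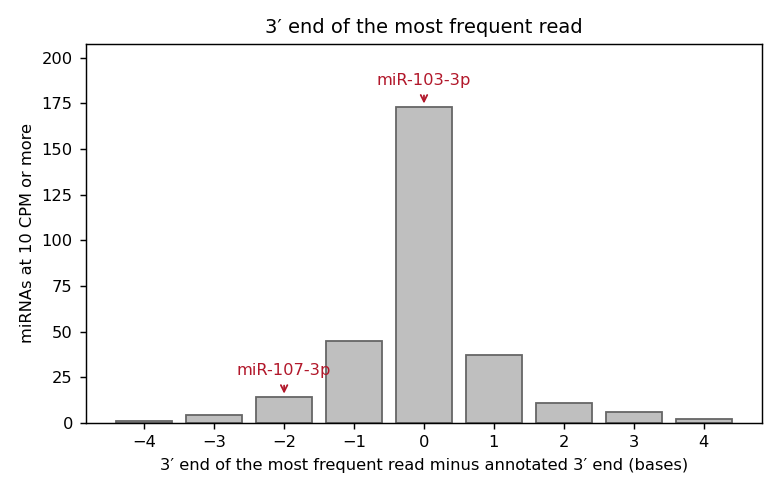
Number of miRNAs at 10 CPM or more (y axis) by the position of the 3′ end of their most frequent read against the annotated end in bases (x axis), for 293 miRNAs with the same end in both libraries. miR-103-3p is in the bar of 173 miRNAs at 0, and miR-107-3p is in the bar of 14 miRNAs at -2.

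All counts listed under miR-107 were in the row of the 3p arm. Set against 3 counts in place of 0 for miR-107-5p in each library, miR-107-3p was 251-fold higher in replicate 1 and 227-fold higher in replicate 2. The tables listed both arms for 312 hairpin names whose arms summed to 10 counts or more in each library. Of these, 117 (37.5%) had a 3p arm that was at least 4-fold above the 5p arm in both libraries, so dominance by 3p was common. A smaller arm at 0 in both libraries was found in 32 of the 312 hairpins (10.3%). The share was 8 of 147 at 50 CPM or more (5.44%) and 5 of 129 at 100 CPM or more (3.88%). Of the hairpins with such an arm, 5 were higher than miR-107, among them miR-320 and miR-192. Because the most frequent miR-107-3p read also occurs in both miR-103 hairpins, the arm ratio holds for the counted rows only. For the Mir107 hairpin itself it may be smaller, or larger if reads from Mir107 were counted as miR-103-3p. The arms of miR-103 were not compared, since no row of a miR-103 5p arm was analysed here.

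miR-103-3p was slightly higher in replicate 2 and miR-107-3p did not pass the test between the libraries. By table totals, the log2 ratio of replicate 2 over replicate 1 was 0.12 for miR-103-3p (adjusted p = 1.10e-17) and -0.11 for miR-107-3p (adjusted p = 0.355, exact binomial test with Benjamini-Hochberg adjustment over all miRNAs tested). This test covers counting error only and compares libraries, not conditions. Of 710 miRNAs tested, 198 (27.9%) were called, 59 of them higher (8.31%) and 139 lower in replicate 2 (19.6%), and the median log2 ratio of all tested was -0.12. With TMM scaling, which removes most of that shift (median -0.004), 187 were called (26.3%), of all tested 15.1% higher and 11.3% lower. There, miR-103-3p was higher by 0.24 (adjusted p = 1.14e-65) and miR-107-3p stood at 0.012 (adjusted p = 0.981). With DESeq2 size factors, by which 26.6% were called, the values were 0.23 (adjusted p = 3.01e-57) and -0.0041 (adjusted p = 1.00). The direction of miR-103-3p was thus the same under all 3 scalings and its size varied from 1.09-fold to 1.18-fold, whereas miR-107-3p had no call under any of them.

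**Figure D4:**
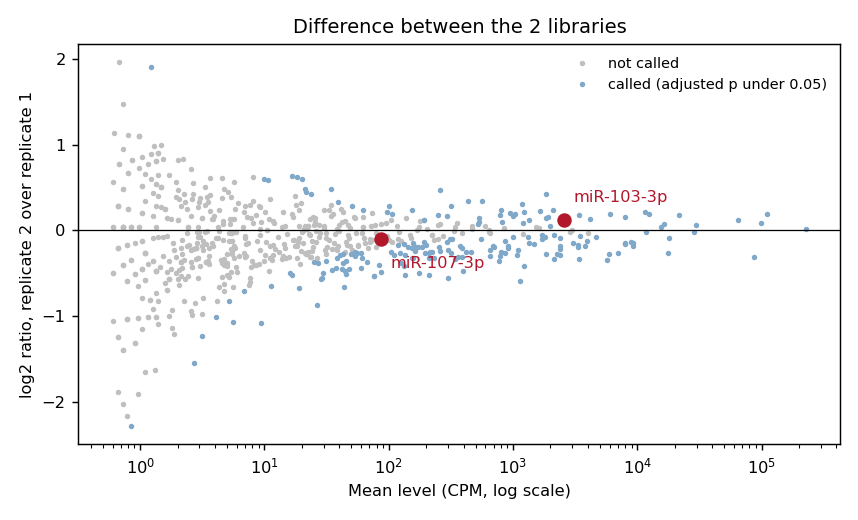
log2 ratio of replicate 2 over replicate 1 by table totals (y axis) against mean CPM (x axis, log scale) for the 710 miRNAs tested, in blue where called and in grey where not. miR-103-3p, at 0.12, and miR-107-3p, at -0.11, lie inside the cloud of miRNAs at their levels. The median of all tested is -0.12 on this scale, so miR-107-3p lies near it and miR-103-3p above it.

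miR-103 and miR-107 belong to a wider group that also holds miR-15 and miR-16, whose members share AGCAGC near the 5′ end but start at different bases, so their seeds differ. The other members are best known in mammals as brakes on the cell cycle, acting on cyclins and cyclin-dependent kinases. The sequences are printed from RefSeq with AGCAGC in capitals, for the 2 members and the 3 others of the group with the highest counts.
miR-103-3p: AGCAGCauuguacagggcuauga
miR-107-3p: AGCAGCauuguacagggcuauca
miR-16-5p: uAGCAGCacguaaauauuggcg
miR-15b-5p: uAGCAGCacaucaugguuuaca
miR-503-5p: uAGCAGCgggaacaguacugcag
In miR-103-3p and miR-107-3p the shared bases begin at base 1, and in the other printed sequences at base 2.

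miR-103-3p held most of the counts of this group in the newborn retina. Of 11 names listed, 10 had a row, all 10 were detected in both libraries, and together they held 3822 ± 31.4 CPM (SD, n = 2). miR-103-3p took 65.4% of the group's counts in replicate 1 and 70.5% in replicate 2 (68.0% ± 3.55, SD, n = 2). miR-16-5p took 22.6% ± 3.13 and miR-107-3p 2.28% ± 0.138. At least 10 CPM was reached by 8 of the 10 rows (80.0%), against 364 of all 1358 rows (26.8%). At least 100 CPM was reached by 3 (30.0%, against 13.3%) and at least 1000 CPM by 1, miR-103-3p (10.0%, against 5.45%). The median of the 10 was 50.6 CPM, against 3.77 CPM over all 919 miRNAs detected in both libraries. The list was drawn by name, includes miR-103-3p and miR-107-3p, and holds no more than 1 arm of a hairpin. All rows also hold the opposite arms and miRNAs without counts, so these shares do not compare like with like.

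miR-103-3p exceeded miR-16-5p (864.5 ± 113 CPM) by 3.01-fold, with log2 ratios of 1.40 in replicate 1 and 1.79 in replicate 2 (mean 1.59 ± 0.28, called). It also exceeded each of the other 7 listed members outside its own family, from miR-15b-5p (24.6-fold, log2 ratio 4.62 ± 0.049) to miR-322-5p (387-fold, log2 ratio 8.60 ± 0.59), and all were called. miR-107-3p was below miR-16-5p (log2 ratio -3.30 ± 0.11, called) and could not be ranked against miR-15b-5p (105.9 ± 9.99 CPM), with log2 ratios of -0.13 in replicate 1 and -0.43 in replicate 2 (mean -0.28 ± 0.21, not called). It was above miR-503-5p, at 60.9 ± 0.913 CPM (1.43-fold, log2 ratio 0.52 ± 0.053, called), and above miR-195a-5p, at 40.3 ± 5.77 CPM (log2 ratio 1.12 ± 0.13, called). miR-497a-5p (26.5 ± 4.23 CPM), miR-15a-5p (23.3 ± 3.51 CPM), miR-497b (8.98 ± 1.72 CPM) and miR-322-5p (6.84 ± 2.36 CPM) were also called below it. In all, 15 of 16 pairs of miR-103-3p or miR-107-3p with another listed member were called. The share of calls among pairs of other miRNAs at unlike levels was not computed. At such counts the test can call small differences, so the tally is not read as a trait of the group. The 21-base read of miR-107-3p touches each of its ratios in the way described above. miR-497b is in the list by name only, since no AGCAGC lies at its start, and miR-195b was not analysed here.

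**Figure D5:**
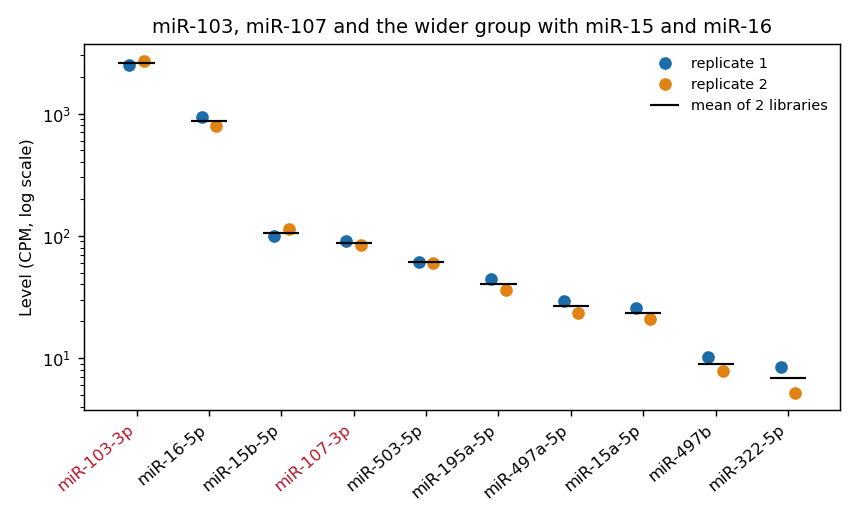
Level in CPM (y axis, log scale) of the 10 listed members of the wider group (x axis, by mean level), with a point for each library and a line at the mean. miR-103-3p lies above 2400 CPM in both libraries, miR-16-5p is next at 944 and 785 CPM, and miR-107-3p lies beside miR-15b-5p.

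Of the 5 miRNAs listed as marks of neural retina, 4 were above 5000 CPM and 1 was below 1000 CPM. miR-9-5p stood at 227199.7 ± 1685 CPM, miR-182-5p at 110064 ± 10501 CPM, miR-183-5p at 65116 ± 3926 CPM, miR-96-5p at 5964 ± 799 CPM and miR-124-3p at 649 ± 73.9 CPM (SD, n = 2). Among marks of other tissues, miR-204-5p of the pigment epithelium and other eye tissue (3389 ± 558 CPM) and the endothelial miR-126a-3p (905 ± 90.9 CPM) were above miR-124-3p, and miR-211-5p was at 5.65 ± 0.495 CPM. The muscle marks miR-206-3p, miR-1a-3p and miR-133a-3p together had 88.6 and 92.0 CPM, and liver miR-122-5p was at 20.9 ± 0.223 CPM. Of the blood marks, miR-451a had 3 counts in each library, while miR-150-5p and miR-223-3p had none, as had miR-205-5p of the surface epithelium. miR-103 and miR-107 are found in most tissues, and the part of other cells in their counts was not tested.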

How the data were processed

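Small RNA was measured in 2 libraries of newborn CD-1 retina. Per the labels' protocols, RNA of 18 to 30 nt was cut from a gel and made into libraries with a ligation-based kit. Reads were written with bcl2fastq 2.17.1.14, per the submitters' processing notes, while no source used here names the aligner, counter or build. The deposited counts were estimated counts per mature miRNA without scaling, with fractional values in 6.77% and 5.96% of cells, and were rounded here. The deposited CPM were scaled by the authors to a library total of their own, and the listed rows summed to 88.5% of that scale in both libraries. CPM here used the total of the count table and was 1.13 times the deposited CPM. The third deposited table gave the most frequent read, marked against miRBase 21 per the file headers.

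Counts were compared within a library with a pseudocount of 0.5, and between libraries for miRNAs with at least 10 counts, by exact two-sided binomial tests with Benjamini-Hochberg adjustment at 0.05, within each family of pairs or over all miRNAs. The test between libraries was tried on simulated counts that varied by counting error alone, so the trial does not cover any further spread between real libraries. TMM factors came from edgeR 4.0.16 and size factors from DESeq2 1.42.0 in R 4.3.3, and the rest from Python 3.11.15 with SciPy 1.17.1 and statsmodels 0.14.6. Of the 1358 names, 1152 matched RefSeq (GRCm38.p6). The members and lists were chosen with earlier results of these data known. Named miRNAs were the members, the AGCAGC list, fixed by name, the 2 neighbours in level on either side, the 3 nearest in both libraries, and the tissue marks. Pair tests beyond the members, seed sums, host introns, read overlaps and the other hairpins named were added after values were seen.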

Additional observations from a re-analysis of the deposited data

How the results depend on the processing

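The alternatives covered the pseudocount, the deposited CPM, the scaling between libraries, the filter on low counts, the limits for arm use and read ends, the list by sequence and leaving out each library. Of the 31 values they gave, 28 kept their direction and side of the threshold or moved by less than the spread. By deposited CPM, miR-103-3p averaged 2299.55 and miR-107-3p 77.2, since the authors' library total is larger. The log2 ratio of miR-107-3p between the libraries changed sign under TMM scaling, to 0.012, and was called in neither case. Leaving out each library in turn gave 2487 to 2709 CPM for miR-103-3p, 84.0 to 90.4 CPM for miR-107-3p and a log2 ratio of 4.78 to 5.01 between them. The share of miR-103-3p in the wider group with miR-15 and miR-16 was 65.4% to 70.5%. The sequence list of that group held 9 rows, and miR-103-3p had 68.1% of its counts. A single library left no spread, so a call then rests on counting error. The planned ratios with a miR-103 5p arm, the family's sum of 3p over 5p and the deposited CPM ratio over miR-107-5p gave no value, because the rows were not analysed here or stood at 0. No paired analysis was possible because the study has 1 group.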

Other observations

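Besides miR-107-3p, the search by exact match found 5 miRNAs whose most frequent read in both libraries lay wholly inside the RefSeq sequence of another listed miRNA. Reads with a mismatched base and overlap with names that lack a RefSeq sequence were outside its reach. miR-199a-3p and miR-199b-3p shared the same read and the same count, 184 in replicate 1 and 186.5 in replicate 2. miR-3473b had 128.3 and 99.3 counts and miR-3473e had 77.3 and 49.3. miR-299b-3p, whose read lay inside miR-299a-3p, had 23 and 19 counts and was, beside miR-107-3p, the other miRNA of the 6 with whole counts in both libraries. These miRNAs were chosen after their values were seen.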
